A study of Saccharomyces cerevisiae with 14 samples.

Results

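The protein-coding genes of the yeast mitochondrial DNA are 8 of the 6470 features in the deposited count table. They were set by locus tag, and no measured value is part of that rule, but earlier results of these data were known when they were chosen. The 8 are COB (Q0105), COX1 (Q0045), COX2 (Q0250), COX3 (Q0275), ATP6 (Q0085), ATP8 (Q0080), OLI1 (Q0130) and VAR1 (Q0140). The table holds 38 other features of the mitochondrial DNA, among them the intron reading frames of COX1 and COB, both ribosomal RNAs, RPM1 (the RNA of mitochondrial RNase P) and 24 tRNAs. Of the 8 genes, 7 passed the filter on low counts and were tested. ATP8 did not, and is given by its counts.

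The yeast mitochondrial DNA encodes the core membrane subunits of the respiratory complexes III and IV and of the ATP synthase (complex V), and a protein of the small mitochondrial ribosomal subunit. It is transcribed by the nuclear-encoded polymerase Rpo41 with its partner Mtf1 into long RNAs that are cut and spliced, and most mRNAs need their own nuclear-encoded activator to be translated. Glucose-fed yeast mainly ferments while it grows, and relies on respiration after glucose is used up.

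RNA was counted in batch cultures of Saccharomyces cerevisiae taken in mid exponential or late stationary phase, with or without metformin, a biguanide given in type 2 diabetes. By its title the study concerns chronological aging, the survival of non-dividing cells, and retrotransposons. Exponential cultures gave 4 libraries with 0 mM and 4 with 50 mM metformin, and stationary cultures 3 with 0 mM and 3 with 50 mM. All came from a haploid MATa strain that carries lyp1D, ura3D0 and his3D1 with his3D::kanMX4, a LEU2 gene, the fusion PDC1-RFP-CaURA3MX4 and, at CAN1, can1D::STE2pr-SpHIS5. Every group therefore shares these alleles, and results hold for this strain only. The labels do not state whether replicates were separate cultures, and the p-values therefore cover the spread among these libraries, which could be technical. Ages in hours or days were not given for the groups.

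Gene counts summed to 43897221 to 59443572 per library. URA3 had 0 counts in all 14 libraries, HIS3 0 to 18 and LYP1 0 to 50, while CAN1, labelled as deleted, had 67 to 1877. The 5 MATa markers ranged from 99 to 42999 counts and the 4 MATalpha markers from 2 to 1204. Nuclear-encoded non-coding RNA held 14.6% ± 1.29 (SD, n = 4) of gene counts in exponential cultures and 68.9% ± 2.71 (n = 3) in stationary ones, both without metformin. TMM scaling, which sets libraries against each other by the bulk of their features, gave factors of 1.35 to 1.52 in exponential and 0.492 to 0.744 in stationary libraries. CPM below are counts brought to a common library size on that scale. In a bulk culture, more mitochondrial RNA per cell and less nuclear-encoded RNA per cell cannot be told apart.

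The mitochondrial DNA of the R64 reference (RefSeq) has 85779 bases, of which 82.89% are A or T. All 8 genes lie on its plus strand. COX1 spans MT:13818-26701 in 8 exons and COB spans MT:36540-43647 in 6 exons; their introns hold reading frames of their own. The other 6 have a single exon: ATP8 at MT:27666-27812, ATP6 at MT:28487-29266, OLI1 at MT:46723-46953, VAR1 at MT:48901-50097, COX2 at MT:73758-74513 and COX3 at MT:79213-80022. The authors' build was not given in the sources used here, and all 6470 identifiers matched R64 locus tags.

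The reading frames of ATP8 and OLI1 are shown because these short genes of the same enzyme had the lowest and the highest level per length of the 8. Capitals mark the start and the stop codon, from R64, plus strand.
ATP8 (MT:27666-27812): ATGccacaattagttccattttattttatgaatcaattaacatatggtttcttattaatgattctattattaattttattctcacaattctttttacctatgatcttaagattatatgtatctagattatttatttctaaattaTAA
OLI1 (MT:46723-46953): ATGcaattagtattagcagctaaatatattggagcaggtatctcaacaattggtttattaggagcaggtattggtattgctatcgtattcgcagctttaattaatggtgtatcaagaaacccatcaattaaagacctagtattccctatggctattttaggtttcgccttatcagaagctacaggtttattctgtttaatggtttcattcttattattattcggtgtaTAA
The ATP8 frame has 147 bases with 80.95% A or T, and the OLI1 frame has 231 bases with 66.67%. No stretch of 50 bases of either frame occurs elsewhere in R64 (0 of 98 and 0 of 182 stretches).

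Mitochondrial transcription starts at a conserved nonanucleotide, ATATAAGTA, with the first base of the RNA at or near its end. The matches nearest upstream of COX1, OLI1 and COB are shown with that of the 21S ribosomal RNA, whose annotated start directly follows the motif. Capitals mark the motif, from R64, plus strand.
COX1 (MT:13338-13367): aataagtattgATATAAGTAatagatataa
OLI1 (MT:46138-46167): tatacacatttATATAAGTAtatatatata
COB (MT:34867-34896): taagaaatattATATAAGTAatatataaaa
21S ribosomal RNA (MT:57989-58018): tattattatatATATAAGTAgtaaaaagta
The exact motif occurred 11 times on the plus and 3 times on the minus strand. Of the 8 genes, 2 held it on the plus strand within 1000 bases before the start codon, COX1 at 461 bases and OLI1 at 566 bases, counted from the end of the motif. For COB the distance was 1654 bases. Of 85 consecutive 1000-base tiles of the mitochondrial DNA, 11 (12.94%) held the motif on either strand. A match describes these letters only, and other spellings of the start site were not searched.

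The 8 genes together held 0.187% ± 0.0132 (SD, n = 4) of all gene counts in exponential cultures without metformin and 1.94% ± 0.125 (n = 3) in stationary cultures without metformin. With metformin they held 0.184% ± 0.0183 (n = 4) and 2.15% ± 0.0877 (n = 3). No exponential library exceeded 0.210% and no stationary library fell below 1.81%, so the phases were far apart while the metformin groups overlapped in the exponential phase. In the stationary phase, libraries without metformin lay between 1.81% and 2.051% and those with metformin between 2.051% and 2.20%, so the lowest value with the drug lay just under the highest without it. Against nuclear protein-coding counts alone, the means were 0.221% and 0.216% in exponential and 6.82% and 8.02% in stationary cultures, without and with metformin.

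Between the phases without metformin, all 7 tested genes rose, by 3.15 to 5.36 on the log2 scale with a median of 4.31, beside a median of 0.02 over the 6097 features tested (edgeR's quasi-likelihood test with Benjamini-Hochberg adjustment over all 6097). Calls were common in this comparison: 84.6% of features passed, 42.4% as higher and 42.2% as lower. Each of the 7 stood among the 351 largest rises, COX1 being the 106th. Scaling by library size alone moved the median of all features to -1.02 and that of the 7 genes to 3.26. All 7 still rose, while the split of calls over all features went from 2585 higher and 2574 lower to 1065 higher and 4019 lower.

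**Figure D1:**
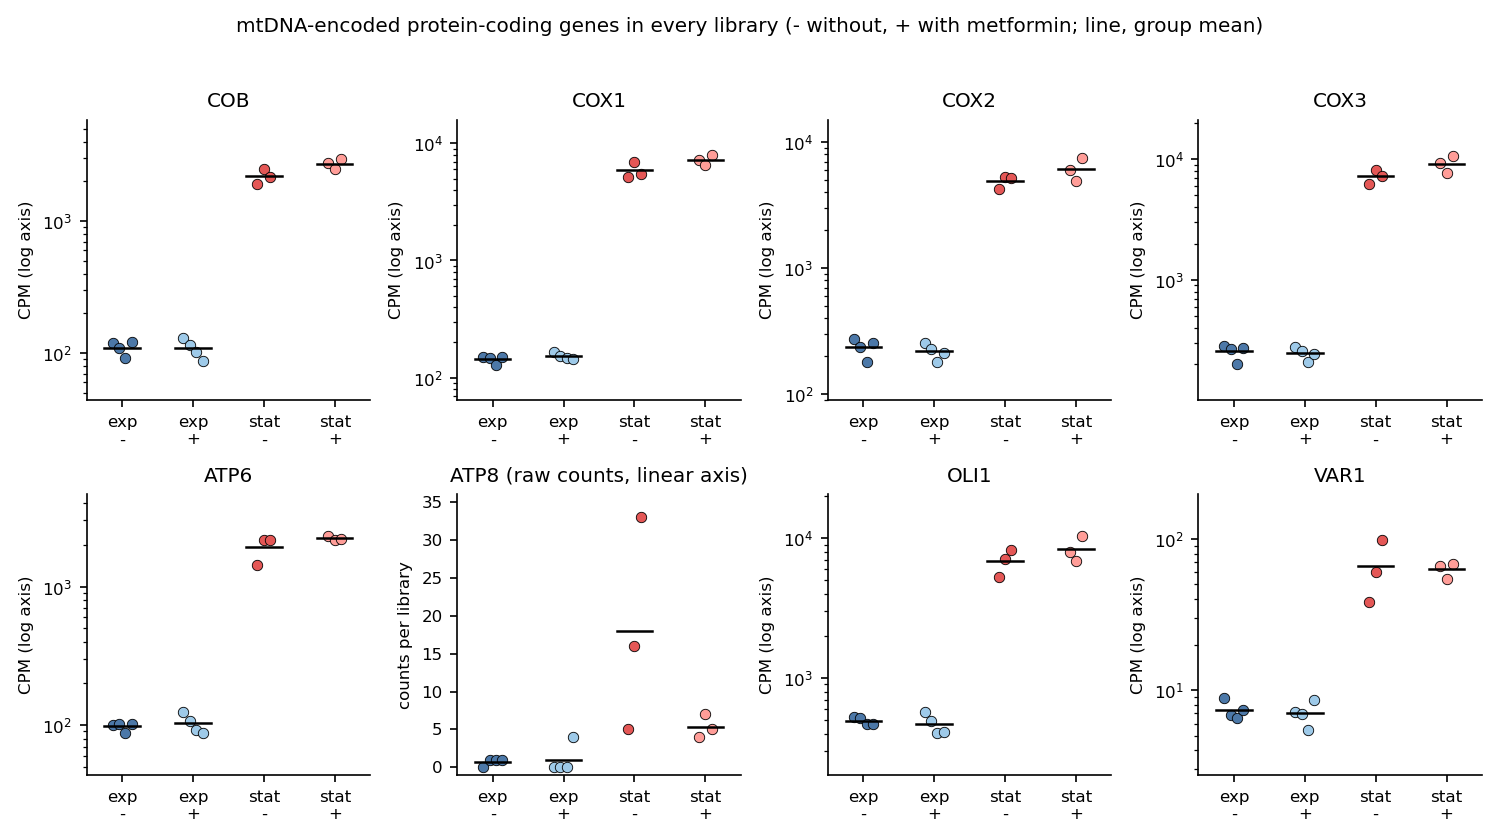
CPM of each mtDNA-encoded protein-coding gene in every library on a log axis, with ATP8 as raw counts on a linear axis; points are libraries (n = 4 per exponential and 3 per stationary group) and lines are group means. For the 7 tested genes every stationary library lies above every exponential library. The share of all features separated in this way is not given. ATP8 stays between 0 and 33 counts.

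Complex III holds a single mtDNA-encoded subunit, cytochrome b, the product of COB. COB had 119, 109, 91.5 and 122 CPM in exponential cultures without metformin and 1926, 2503 and 2154 CPM in stationary cultures without it. The groups did not overlap and the spread within each was small beside the gap. The share of all features without overlap between the phases is not given here. Non-overlap is therefore not read as particular to these genes. COB rose by 4.31 (log2, SE 0.16, adjusted p = 5.18e-12, edgeR). Of its 1158 exon bases, 402 are its own, and the others are shared with the intron reading frames BI2, BI3 and BI4.

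Complex IV, cytochrome c oxidase, has its catalytic core in COX1, COX2 and COX3. COX1, the subunit that binds both hemes, had 149.5, 147, 128 and 149.9 CPM in exponential cultures and 5173, 6969 and 5494 CPM in stationary cultures without metformin. Its lowest stationary library stood far above its highest exponential library, and the rise of 5.36 (log2, SE 0.13, adjusted p = 3.65e-13, edgeR), or 40.9-fold, was the largest of the 7 genes. COX3 went from 283, 269, 201 and 270.4 CPM to 6273, 8131 and 7269.7 CPM, a rise of 4.82 (log2, SE 0.17, adjusted p = 4.05e-12, edgeR). COX2, which takes electrons from cytochrome c, went from 274, 236, 181 and 253 CPM to 4215, 5245 and 5224 CPM, a rise of 4.37 (log2, SE 0.19, adjusted p = 2.66e-11, edgeR). The exponential library numbered 3 was the lowest of its group for all 3 genes. The phases did not overlap for any of them, which is not read as particular to them, since 84.6% of all features were called.

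Of COX1's 1605 exon bases, 633 are its own, and the rest are shared with AI1 to AI5_ALPHA. Reads that overlapped several features made up 0.424% ± 0.00588 (SD, n = 4) of all reads in exponential cultures and 1.98% ± 0.0348 (n = 3) in stationary ones, both without metformin. Their part in the values of COX1 and COB was not tested. The other 6 genes share few bases or none, COX2 19 of 756 with the reading frame Q0255.

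In the ATP synthase, the proton channel is formed by Atp6 and a ring of Atp9, which OLI1 encodes, with Atp8 beside them. ATP6 had 101, 102, 87.2 and 102 CPM in exponential and 1423, 2166 and 2164 CPM in stationary cultures without metformin. OLI1 had 526, 516, 473 and 470.4 CPM in exponential and 5237, 7045 and 8231 CPM in stationary cultures. Both were separate between the phases, which is likewise not read as particular to them. ATP6 rose by 4.29 (log2, SE 0.16, adjusted p = 8.32e-12) and OLI1 by 3.78 (log2, SE 0.18, adjusted p = 9.57e-11), both by edgeR's test.

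ATP8 was nearly without reads. It had 0, 1, 1 and 1 counts in exponential cultures without metformin, 0, 0, 0 and 4 with metformin, 5, 16 and 33 in stationary cultures without and 4, 7 and 5 with metformin. The libraries of this range held at least 43897221 gene counts each, and a count of 0 allows up to 3 counts per library. ATP8 lies upstream of ATP6 and is carried on the same mRNA, as background, yet ATP6 reached 6116 to 7809 counts per exponential library and 59099 to 78212 per stationary library. Stationary libraries without metformin were spread widely. In raw counts, the 4 of the exponential library with metformin numbered 4 fell within the range of the stationary libraries with metformin. In CPM that library had 0.0537, below the 0.147, 0.193 and 0.183 of the stationary libraries with metformin. No fold is given at these counts. OLI1, with 231 bases against 147 for ATP8, had the most reads per length of all 8 genes. The cause of the low ATP8 counts was not tested.

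VAR1 encodes Var1, a protein of the small mitochondrial ribosomal subunit, and is the most A+T-rich of the 8 genes at 89.64%. It had 8.92, 6.88, 6.51 and 7.33 CPM in exponential and 38.4, 60.2 and 98.7 CPM in stationary cultures without metformin. The phases did not overlap, which is not read as particular to VAR1. The 3 stationary libraries were the most scattered among the 7 tested protein-coding genes, with a coefficient of variation of 46.4%. VAR1 rose by 3.15 (log2, SE 0.25, adjusted p = 2.17e-08, edgeR), the smallest rise of the 7.

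Levels between genes were compared per kilobase of bases that no other feature shares. In exponential cultures without metformin OLI1 led with 2148 ± 124 CPM per kb (SD, n = 4). COX2 (320.3 ± 53.97), COX3 (316 ± 45.7) and COB (274.6 ± 34.6) followed, and the differences among them were not tested. COX1 (227 ± 16.7), ATP6 (126 ± 9.25), VAR1 (6.19 ± 0.884) and ATP8 (0.0688 ± 0.0467) came after them. In stationary cultures without metformin OLI1 again led with 29600.3 ± 6527 CPM per kb (n = 3), and COX1 (9287 ± 1513) and COX3 (8919 ± 1148) came next without differing beyond their spread. COX2 (6641 ± 798), COB (5458 ± 722), ATP6 (2458 ± 549.6), VAR1 (54.97 ± 25.5) and ATP8 (3.71 ± 3.06) completed the order. COX1 thus moved from the fifth to the second place. Over whole annotated lengths COX1 had 89.5 ± 6.60 and 3663 ± 597 CPM per kb, which placed it below ATP6 in exponential and below COX2 in stationary cultures.

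The make-up of the 8 genes' summed counts changed with phase, a measure that no scaling between libraries enters. COX1 made up 10.7% ± 0.328 (SD, n = 4) of the sum in exponential and 20.3% ± 2.07 (n = 3) in stationary cultures without metformin. COX3 went from 18.9% ± 1.13 to 25.0% ± 1.10. OLI1 went from 37.0% ± 2.65 to 23.5% ± 2.96, and VAR1 from 0.549% ± 0.0475 to 0.223% ± 0.0875. For these 4 genes no library of a phase overlapped the other phase. The shares of COX2 (17.4% ± 1.47 and 16.9% ± 0.528), COB (8.18% ± 0.499 and 7.58% ± 0.483) and ATP6 (7.29% ± 0.272 and 6.56% ± 0.6247) overlapped between the phases. Shares of a sum move against each other, so they are given as a description with no test.

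**Figure D2:**
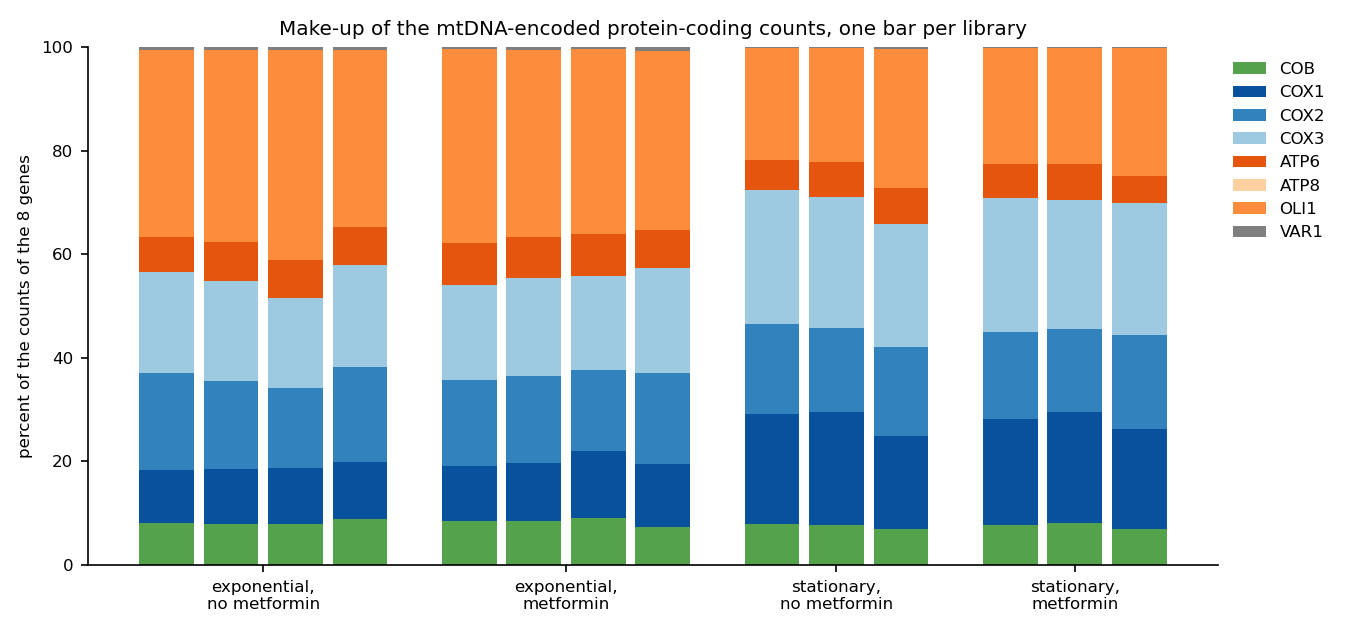
Stacked bars of the percent of the 8 genes' summed counts held by each gene, 1 bar per library, grouped by phase and metformin. COX1 holds 10.2% to 12.9% in the exponential libraries and 17.9% to 21.7% in the stationary ones, and OLI1 holds 34.2% to 40.5% and 21.6% to 26.9%.

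Ratios between genes were then tested over libraries with exact two-sided permutation tests, 11 ratios in 4 comparisons, with Benjamini-Hochberg adjustment over the 44 tests. These ratios were chosen after the values were seen. The smallest p that the design allows is 0.0286 between the phases and in the exponential phase and 0.1 in the stationary phase, and no adjusted p fell under 0.05. ATP6 and COX1 lie in the same stretch of the mitochondrial DNA and, as background, on a shared primary transcript. ATP6 to COX1, in reads per unshared base, had a geometric mean of 0.554 in exponential and 0.262 in stationary cultures without metformin (exact p = 0.0286, adjusted p = 0.0739), or 1.40 and 0.664 per whole annotated length. VAR1 to OLI1, also neighbours that share a transcript as background, went from 0.00286 to 0.00176 (exact p = 0.0286, adjusted p = 0.0739). For both ratios all 3 stationary libraries lay below all 4 exponential ones.

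With metformin in both phases, the rise from exponential to stationary cultures was again called for 7 of 7 genes, where 82.6% of the 6097 features passed, 40.8% as higher and 41.8% as lower. This comparison shares no library with the one without metformin. The log2 rises, in the same edgeR fit, were 5.58 for COX1 (SE 0.13), 5.21 for COX3 (SE 0.17), 4.81 for COX2 (SE 0.19), 4.64 for COB (SE 0.16), 4.44 for ATP6 (SE 0.17), 4.15 for OLI1 (SE 0.19) and 3.16 for VAR1 (SE 0.25). All 7 adjusted p-values were at or below 2.24e-08, and the phases did not overlap for any of the 7. Again no share of non-overlap over all features is given beside this. The order of the genes by rise was the same as without metformin.

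**Figure D3:**
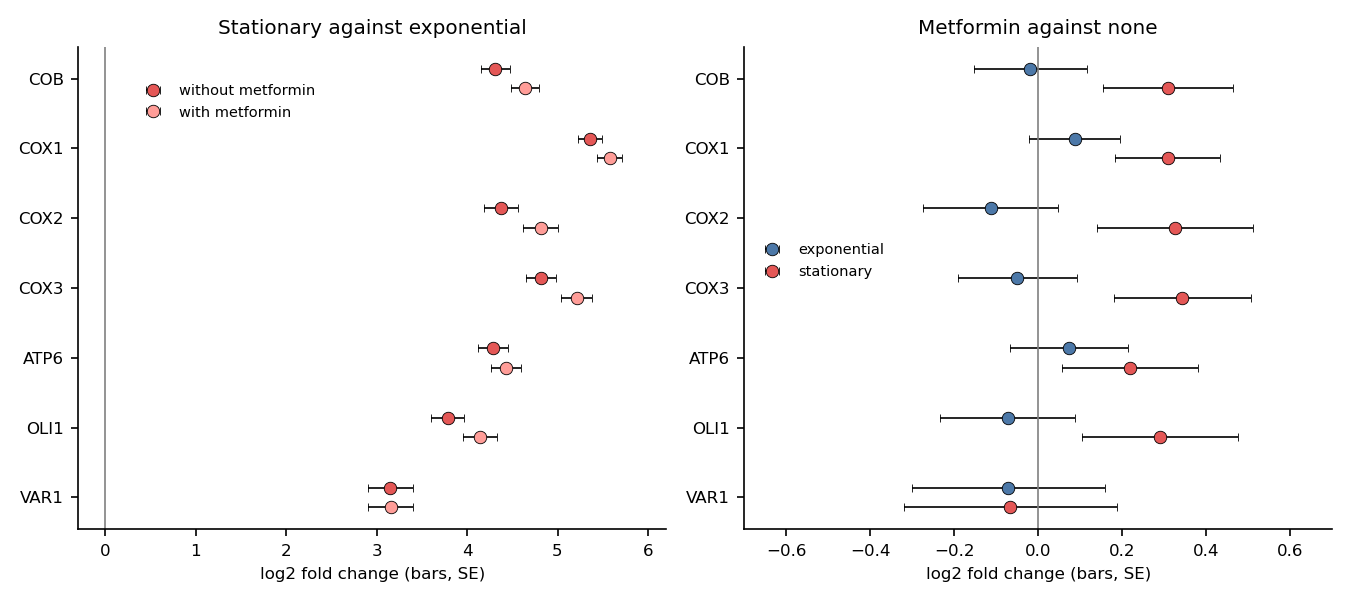
Log2 fold change of the 7 tested genes with its standard error, for the change from exponential to stationary cultures, without and with metformin (left) and for metformin against none in each phase (right; the horizontal axes differ). Phase changes lie between 3.15 and 5.58, and metformin changes between -0.11 and 0.34.

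Metformin in exponential cultures changed none of the 7 tested genes past the threshold, where 0.0984% of features passed (edgeR). COX1 had 164, 154, 148 and 145 CPM with metformin, against 128 to 149.9 without, and OLI1 had 573, 496, 406 and 414 CPM, against 470.4 to 526. The groups overlapped for every one of the 7 genes. COX2 was lower with metformin in 4 of 4 same-numbered pairs (exact sign-flip p = 0.125, the smallest possible). Log2 differences ran from -0.11 for COX2 (SE 0.16) to 0.09 for COX1 (SE 0.11), with a median of -0.05 beside 0.01 over all features. No member had an unadjusted p under 0.05, and 108 features did.

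In stationary cultures COX1 had 7273, 6581 and 7987 CPM with metformin, against 5173, 6969 and 5494 without. COX3 had 9221, 7664 and 10619.9 CPM, against 6273 to 8131, and COB had 2743, 2478 and 2936 CPM, against 1926 to 2503. The groups overlapped for each of the 7 genes, and no gene passed the threshold, where 0.0492% of features did (edgeR). Log2 differences were 0.34 for COX3 (SE 0.16), 0.33 for COX2 (SE 0.19), 0.31 for COB (SE 0.15), 0.31 for COX1 (SE 0.13), 0.29 for OLI1 (SE 0.19), 0.22 for ATP6 (SE 0.16) and -0.07 for VAR1 (SE 0.25). The median was 0.31 beside 0.01 over all features. COX1 alone had an unadjusted p under 0.05 (adjusted p = 0.521, edgeR), as 490 of 6097 features did.

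The stationary library without metformin numbered 1 was the lowest of its group for all 7 tested genes, and without it the differences were 0.23 for COX1, 0.05 for ATP6, 0.14 for OLI1 and -0.33 for VAR1. Without the stationary metformin library numbered 3 they were 0.15 for COX2, 0.23 for COX3 and 0.12 for OLI1, and without the control library numbered 3 they were 0.45 for OLI1 and 0.35 for VAR1. With scaling by library size alone the median of all features moved to -0.13 and that of the 7 genes to 0.15. The metformin effect in stationary cultures exceeded that in exponential cultures by 0.01 for VAR1 to 0.44 for COX2 (SE 0.25), and 0 of 7 passed, where 0.0164% of features did (edgeR). None of the 7 had an unadjusted p under 0.05 for it, and 338 features did. A p that misses the threshold does not show that the drug left these transcripts as they were.

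The introns of COX1 and COB hold reading frames for maturases, which help splice their own intron, and for homing endonucleases. AI1 and AI2, the frames of the COX1 group II introns, held 0.361% ± 0.0285 (SD, n = 4) of gene counts in exponential cultures without metformin, more than the 8 protein-coding genes together. In stationary cultures they held 1.62% ± 0.0736 (n = 3), less than the 8 genes. AI1 rose by 2.88 (log2, SE 0.15) and AI2 by 3.55 (SE 0.15), against 5.36 for COX1 (adjusted p = 2.08e-10 and 1.86e-11, edgeR).

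Per unshared base, the log2 ratio of AI1 to COX1 was 1.64, 1.40, 1.43 and 1.37 in exponential cultures and -1.06, -1.09 and -0.85 in stationary cultures without metformin. The geometric mean ratio went from 2.75 to 0.499, a log2 difference of -2.46 (exact permutation p = 0.0286, adjusted p = 0.0739). That of AI2 to COX1 went from 2.11 to 0.609, a difference of -1.79 with the same p-values. Every exponential library had more AI1 and AI2 than COX1 reads per unshared base and every stationary library fewer. This order rests on the length used: per whole annotated length AI1 and AI2 stayed above COX1 in stationary cultures without metformin, at mean ratios of 1.18 and 1.42, after 6.51 and 4.93 in exponential cultures. The fall of the ratio between the phases is the same for either length. With metformin the phase differences were -2.47 and -1.89, with the same p-values. Between libraries of the same number, AI1 to COX1 was lower with metformin in 4 of 4 exponential pairs (mean log2 difference -0.11, exact sign-flip p = 0.125) and in 3 of 3 stationary pairs (-0.12, exact sign-flip p = 0.25), the smallest p that 4 and 3 pairs allow, and the adjusted p over 36 such tests was 0.783.

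The other frames were scarcer than their host in both phases. AI4 to COX1 went from 0.0207 to 0.00934, a log2 difference of -1.15, AI5_ALPHA to COX1 from 0.00921 to 0.00465, and BI4 to COB from 0.0175 to 0.0101, all without overlap between the phases (exact permutation p = 0.0286, adjusted p = 0.0739). AI3 to COX1 differed by -0.23 on the log2 scale. AI5_BETA to COX1 (-0.26), BI2 to COB (-0.17) and BI3 to COB (-0.26) overlapped between the phases without metformin. With metformin BI2 to COB (-0.52) and BI3 to COB (-1.09) did not overlap (exact permutation p = 0.0286, adjusted p = 0.0739). Without metformin BI3 to COB turned to 0.29 without the stationary library numbered 1. In exponential cultures BI3 to COB was higher with metformin in all 4 libraries (log2 difference 0.40, exact permutation p = 0.0286, adjusted p = 0.0739), at 16 to 27 counts of BI3 per library. In the 4 same-numbered pairs it was higher in 4 (exact sign-flip p = 0.125).

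**Figure D4:**
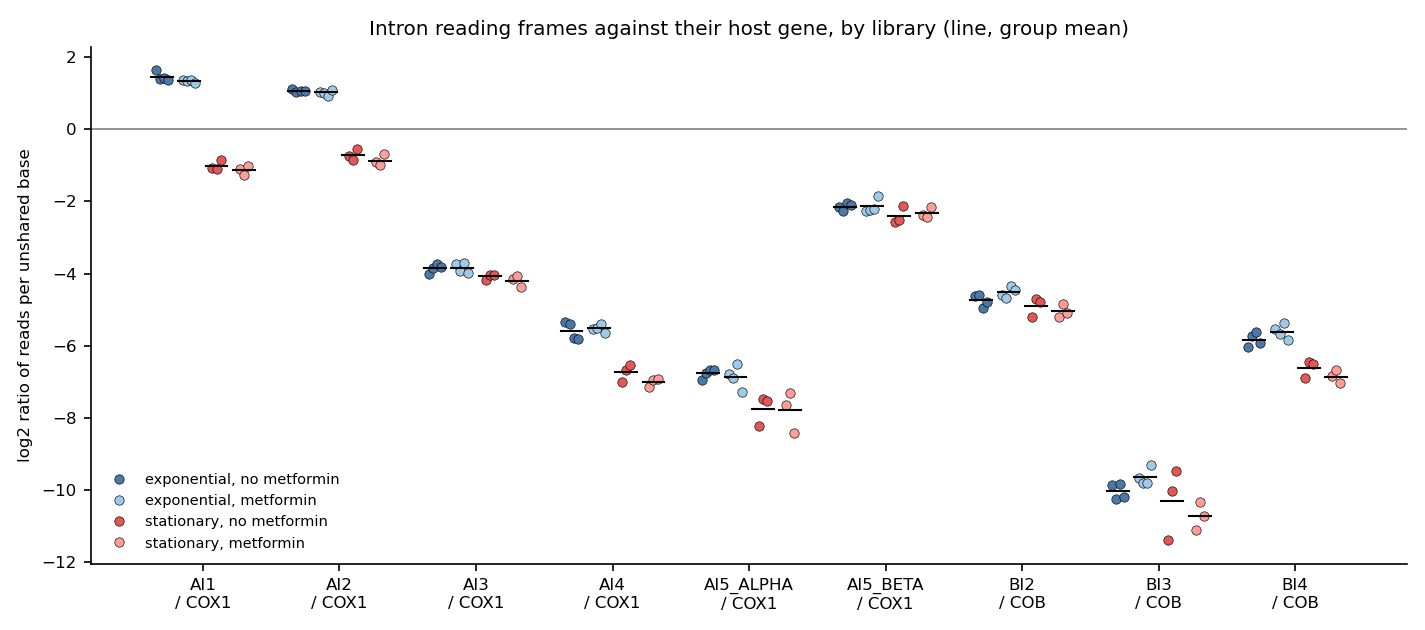
Log2 ratio of reads per unshared base of each intron reading frame to its host gene, with points for libraries, colours for the 4 groups and lines for group means. AI1 and AI2 lie above 0 in all exponential libraries and below 0 in all stationary libraries; the other frames lie below 0 throughout. With whole annotated lengths the group means of AI1 and AI2 stay above 0 in every group.

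All 14 other reading frames and RNAs of the mitochondrial DNA passed the filter, and all 14 rose between the phases without metformin, by 2.88 to 5.13 with a median of 4.37 on the log2 scale. Of 24 tRNAs, 15 passed and all 15 rose. Over all features 42.4% were called higher. With metformin 14 of 14 and 14 of 15 rose, beside 40.8% called higher over all features. The 24 tRNAs together held 222 to 417 counts per exponential library and 2178 to 5968 per stationary library. A tRNA could thus pass the filter through the stationary libraries alone, so the tRNA calls are not read against these shares. The 15S ribosomal RNA rose by 4.38 (log2, SE 0.60), the 21S by 4.99 (SE 0.64) and RPM1 by 4.48 (SE 0.58), with adjusted p-values of 8.99e-06, 4.57e-06 and 4.96e-06 (edgeR). RPM1 had 92.1, 221 and 922 CPM in stationary cultures without metformin, and without the library numbered 3 its rise was 3.08. These libraries were depleted of ribosomal RNA, so the ribosomal values are what depletion left. Over the 14 libraries, after group means were removed, the 7 tested genes moved together, each with a Pearson r of 0.567 (VAR1) to 0.894 (COX2) with the mean of the others, while the 15S and 21S RNAs had 0.144 and 0.136. Of the 14 other reading frames and RNAs, AI1, AI2 and Q0255 had the highest r with the mean of the 7, at 0.870, 0.900 and 0.849. AI4, AI5_BETA, BI2, BI3, RPM1 and BI4 ranged from 0.748 down to 0.505. AI3, SCEI and AI5_ALPHA had 0.441, 0.279 and 0.236. The 15S and 21S values include the exponential metformin library numbered 4, which was high for both. These points share library and scaling, and are given as a description.

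The nuclear-encoded partners moved less in the phase comparison without metformin. Their counts stand beside 42.4% of all features called higher and 42.2% called lower. Of 9 nuclear subunits of complex III, 7 rose and none fell, with a median of 1.49 on the log2 scale; CYT1, cytochrome c1, rose by 1.60 (SE 0.12) and QCR10 by 2.28 (SE 0.18). Of 10 nuclear subunits of complex IV, 9 rose, with a median of 1.39; COX13 rose by 2.36 (SE 0.15) and COX5A by 1.48 (SE 0.10). COX26, singled out after its value was seen, reached 4.34 (SE 0.77). Of 14 nuclear subunits of complex V, 6 rose and 4 fell, with a median of 0.14; ATP3 rose by 0.89 (SE 0.11) and ATP18 by 1.31 (SE 0.16). Of 31 nuclear proteins of the small mitochondrial ribosomal subunit, 22 rose and 5 fell, with a median of 0.34; MRPS5 rose by 1.504 (SE 0.07) and MRPS17 by 2.02 (SE 0.12). Every tested mtDNA-encoded gene had a larger log2 change than every nuclear gene listed for its own complex, the closest pair being COX2 (4.37) and COX26. These calls are edgeR's, and the differences between genes were not tested.

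**Figure D5:**
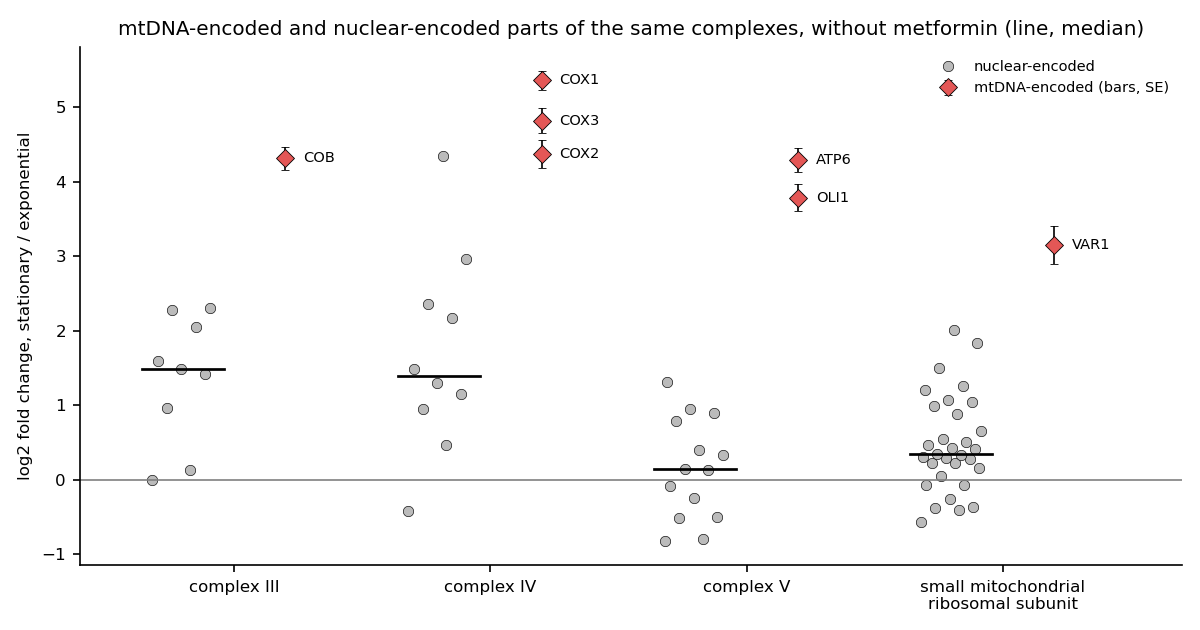
Log2 fold change of stationary against exponential cultures without metformin for mtDNA-encoded genes (diamonds, with SE) and nuclear-encoded genes (circles, line at the median) of the same complex. The nuclear medians are 1.49, 1.39, 0.14 and 0.34, and the mtDNA-encoded genes lie between 3.15 and 5.36.

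Scaling by library size alone lowers all of these values by about the shift of the median feature, to -1.02. Under it 5 of 9 nuclear genes of complex III rose and 2 fell, and 5 of 10 of complex IV rose and 2 fell. For complex V 10 of 14 fell and 0 rose, and for the ribosomal proteins 21 of 31 fell and 3 rose. Over all 6097 features 1065 were called higher and 4019 lower under it. The falls in complex V and the ribosomal proteins thus lie near the share over all features. Relative to the median feature the list medians were then 1.48, 1.37, 0.12 and 0.32.

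Of the genes that transcribe, process and translate mitochondrial RNA, RPO41 rose by 1.70 (log2, SE 0.11) and MTF1 by 0.42 (SE 0.09), which turned to -0.62 with library size alone. Of 16 genes for splicing, processing and decay, 8 rose and 5 fell, with a median of 0.19, again beside 42.4% higher and 42.2% lower over all features; RPM2, the protein of mitochondrial RNase P, rose by 1.62 (SE 0.18) and MSS18, a splicing factor for a COX1 intron, fell by 1.43 (SE 0.11). With library size alone 1 of these 16 rose and 13 fell, beside 1065 higher and 4019 lower of all 6097 features. Of 26 insertion and assembly factors 16 rose and 7 fell, with a median of 0.41, and with library size alone 4 rose and 17 fell; COX11 rose by 1.25 (SE 0.08) and COX15 by 1.43 (SE 0.11).

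The activators were listed by the mitochondrial mRNA they serve. Their counts stand beside 42.4% of all features called higher and 42.2% called lower. For COX1, 3 of 4 rose, with MAM33 at 0.93 (SE 0.11) and MSS51 at 0.70 (SE 0.09), both below 0 with library size alone (-0.12 and -0.34). PET111, for COX2, rose by 1.39 (SE 0.12; 0.34 and no call with library size alone), and SOV1, for VAR1, by 1.80 (SE 0.10). For COX3, PET122 rose by 0.37 (SE 0.13, and -0.68 with library size alone) and PET54 fell by 0.53 (SE 0.10). PET54 is listed for COX1 as well, where it is the gene that fell, so it is counted in both lists. For COB, 1 of 5 rose and 3 fell; CBP6 rose by 1.12 (SE 0.12) and CBS1 fell by 0.69 (SE 0.11). For ATP6 and ATP8, 3 of 4 rose, NCA3 by 6.10 (SE 0.23) and ATP22 by 1.12 (SE 0.08). For OLI1, AEP1 rose by 1.15 (SE 0.07) and AEP2 fell by 0.39 (SE 0.10). With library size alone 1065 of all 6097 features were called higher and 4019 lower. Under this scaling 0 of the activators for COX1, COX3, COB and OLI1 rose, and 2 of 4, 3 of 3, 4 of 5 and 2 of 3 fell. For ATP6 and ATP8, 1 of 4 rose and 1 fell, and SOV1 rose. Each adjusted p of these named genes was at or below 0.0140 (edgeR).

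Of 9 genes that maintain the mitochondrial DNA, 2 rose and 6 fell between the phases without metformin, with a median of -0.55. Over all features 42.4% were called higher and 42.2% lower. With library size alone all 9 fell, beside 4019 of all 6097 features. RIM1, which binds single-stranded mitochondrial DNA, fell by 3.29 (SE 0.13) and CCE1, which cuts DNA junctions, fell by 2.14 (SE 0.11), with adjusted p of 8.06e-12 and 2.33e-10 (edgeR). The amount of mitochondrial DNA was not measured. Metformin moved no gene of any of these lists past the threshold in either phase. Of all features only 0.0984% passed in the exponential and 0.0492% in the stationary phase.

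The 5 nuclear features most like the 7 tested genes in their variation within groups were PHR1 (Pearson r = 0.920), which encodes the DNA photolyase, SNR30 (0.902) and LSR1 (0.896), a small nucleolar and a small nuclear RNA, SUT053 (0.901), a non-coding transcript, and HEM12 (0.886), an enzyme of heme synthesis. The likeness was Pearson's r to the genes' mean log2 CPM over 14 libraries, with group means removed, among 5022 features. It is a description, and the points share depth and scaling.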

How the data were processed

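Libraries were directional and made after ribosomal RNA depletion, per the labels' protocols; STAR, SAMtools and HTSeq appear in the submitters' processing notes. The authors deposited raw counts per feature. For the counting, the build, versions, strand setting and overlap mode were not given in the sources used here. The 5 HTSeq summary rows were left out of library sizes and tests. The filter filterByExpr (minimum count 10, minimum total 15) kept 6097 features. A single edgeR 4.0.16 fit (R 4.3.3) held all 14 libraries, with TMM and group as its term; no replicate block was used. All tests are two-sided, and p-values were adjusted over all features by Benjamini-Hochberg (threshold 0.05). Standard errors derive from the test statistic. Counts carried no molecular identifiers, so floors cover counting error only. No libraries of a group matched within sampling noise, and the common biological coefficient of variation was 15.1%. The test was checked on simulated counts in which few features changed, and only by a small factor. That check does not cover a setting like the phase comparison, where most features were called. Sequences, lengths and shared bases came from R64.

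The members, gene lists and comparisons were chosen with earlier results of these data known. From each nuclear list the 2 genes with the lowest p were named. Likeness used log2 CPM with a prior count of 2 and features of at least 10 mean CPM.

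Replicate numbers come from the titles; the third stationary libraries are numbered 5 in the table's columns. Deviations of same-numbered libraries with and without metformin correlated at 0.302, 0.103, 0.624 and 0.232 in the exponential phase and at 0.259, 0.136 and 0.467 in the stationary phase. Exponential control 2 correlated more strongly with metformin library 1 (0.525), and stationary control 1 with metformin library 2 (0.35). For every other control the same-numbered library had the highest correlation. The numbers were taken to pair libraries within a phase, and this pairing is uncertain. Across the phases same-numbered libraries correlated at -0.0592 to -0.033 without metformin and at 0.151, 0.261 and 0.216 with it. Libraries of different numbers were not compared across the phases, so pairing there was not tested. The alternatives were other scalings (RLE, library size alone, nuclear protein-coding features), no filter, DESeq2 1.42.0, voom in limma 3.58.1, fits on the compared groups alone, the replicate block (for ratios, sign flips within pairs, chosen after seeing the data), other denominators and lengths, and leaving out each library.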

Additional observations from a re-analysis of the deposited data

Results flagged for a closer look

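A library was singled out where its gap to the nearest of the other 3 took most of the group's range (Dixon's test at the 95% level, groups of 4 only). Of 68 groups tested 7 passed, where chance gives about 1 in 20.

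The exponential library with metformin numbered 4 gave 5 of the 7, counting ATP8. Its 15S ribosomal RNA stood at 904 CPM, against 117 to 178 in the other 3, and its 21S ribosomal RNA at 578 CPM, against 77.4 to 106. SCEI, the homing endonuclease frame within the 21S intron, stood at 54.7 CPM, against 27.1 to 30.4. The mtDNA-encoded protein-coding genes of that library did not stand apart in this way, except ATP8, at 0.0537 CPM (4 counts) against 0 in the others; any count above 0 would pass the test there, so it says nothing of that library. The log2 ratio of AI5_BETA to COX1 was -1.85 there, against -2.25 to -2.22.

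In exponential cultures without metformin, the library numbered 3 was low for COX1, at 128 CPM against 147 to 149.9, and for ATP6, at 87.2 CPM against 101 to 102.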

How the results depend on the processing

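The number of genes called was 0 for metformin in either phase and for the difference between phases, and 7 for each phase comparison, under every scaling, test and replicate block tried, and stayed so without each library in turn, except that ATP8 passed the filter and made it 8 with no filter on low counts and in some fits without a library. With the replicate block the counts were 0, 0, 0, 7 and 7, and no call changed. The log2 difference of COB for metformin in exponential cultures turned to 0.0020 with library size alone. For VAR1 in stationary cultures it turned to 0.03 (0.0332 with voom, 0.0257 with the replicate block). With library size alone the difference between phases turned to -0.0031 for ATP6 and -0.16 for VAR1. The causes were not tested.

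Leaving out 1 library at a time, these log2 values crossed 0. For metformin in exponential cultures: ATP6 -0.0326 to 0.12, COB -0.12 to 0.0509, COX3 -0.15 to 0.0127, VAR1 -0.20 to 0.0223, and the ratios AI3 to COX1 -0.0440 to 0.0643, AI4 to COX1 -0.00452 to 0.16, AI5_ALPHA to COX1 -0.23 to 0.0266, AI5_BETA to COX1 -0.0908 to 0.0441, ATP6 to COX1 -0.0893 to 0.0234 and VAR1 to OLI1 -0.15 to 0.0867. For metformin in stationary cultures: VAR1 -0.33 to 0.35, AI5_ALPHA to COX1 -0.29 to 0.26 and ATP6 to COX1 -0.19 to 0.0716. For the difference between phases: ATP6 -0.0242 to 0.25 and VAR1 -0.26 to 0.42. Between the phases without metformin: BI3 to COB -0.67 to 0.29.

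The 8 genes' share of counts was 0.221%, 0.216%, 6.82% and 8.02% against nuclear protein-coding counts, and 0.170%, 1.81% and 2.02% of all reads in the groups where it moved (exponential and stationary without metformin, stationary with it). Lengths with shared bases included lowered COX1 and COB per kilobase. With whole lengths, chosen after seeing the data, the mean log2 ratio to COX1 turned to 0.24 for AI1 and 0.51 for AI2 in stationary cultures without metformin, to 0.12 and 0.36 with it, and to 0.49 and 0.46 for ATP6 in exponential cultures without and with it. Sign flips within pairs allow no p under 0.125 with 4 pairs or 0.25 with 3, so no ratio could reach 0.05 and they decide nothing here. Depth limits ATP8, BI3 and the tRNAs that failed the filter.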
